A study of Mus musculus with 36 samples.

Results

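The purinergic receptors examined here were 10 mouse genes, chosen by their symbols, with earlier results of these data known. They were 4 P2X receptor genes (P2rx1, P2rx4, P2rx5 and P2rx7) and 6 P2Y receptor genes (P2ry1, P2ry2, P2ry6, P2ry12, P2ry13 and P2ry14), of 52636 genes in the count table. All 10 had a row in the table, 8 passed the filter on low counts, and P2rx5 and P2ry13 did not. The study asked which genes set perisynaptic Schwann cells (PSCs), the glia that cover the neuromuscular junction, apart from other cells of the muscle, and its RNA-seq compared PSCs, S100β-GFP+ cells and NG2-dsRed+ cells by pairs.

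P2X receptors are ion channels opened by extracellular ATP, and they let sodium and calcium into the cell. P2Y receptors are G protein-coupled receptors for ATP, ADP, UTP, UDP or UDP-sugars, of which P2Y1, P2Y2 and P2Y6 act mainly through Gq and release of stored calcium, while P2Y12, P2Y13 and P2Y14 act mainly through Gi, which lowers cyclic AMP. Motor nerve endings release ATP together with acetylcholine, and Schwann cells at the junction answer such transmitters with rises of calcium, which is why these receptors are of interest in PSCs.

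All cells came from S100β-GFP;NG2-dsRed mice, so each group carried both transgenes: GFP under the promoter of S100b and dsRed under the promoter of Cspg4, the gene of NG2. FACS separated cells with both colours (PSCs), with GFP alone (S100β-GFP+ cells, which the study calls Schwann cells) and with dsRed alone (NG2-dsRed+ cells). Diaphragm, pectoralis, forelimb and hindlimb muscles were pooled within a mouse, each replicate was 1 mouse, and no treatment was given. The study's methods give an age of P15 to P21, whereas the labels give ranges that begin at P15 and end between P21 and P46. The labelled upper end rises by 1 day from each sample to the next, from P21 to P46, and then stays there. It may therefore not be a true age, and no mouse older than P21 can be inferred from it. The sort rested on 2 promoters, so any other cell using them would enter the same gate. The analysis used 9 PSC, 8 S100β-GFP+ and 10 NG2-dsRed+ libraries, with 12 of each in the labels.

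The libraries held between 5221655 and 9592875 counts on genes, and 3.64% to 40.0% of a library's counts fell on the 3 genes Lars2, Gm23935 and Gm15564. Levels are given in CPM, counts scaled to the library size after TMM normalization, and a value after ± is the SD over the 9 PSC, 8 S100β-GFP+ or 10 NG2-dsRed+ libraries. The summed level of 8 Schwann cell markers was 2549 to 3538 CPM in PSCs but 74.5 to 441 CPM in S100β-GFP+ cells, where Sox10, the defining transcription factor of Schwann cells, had 20.2 ± 12.0 CPM (SD, n = 8) against 506 ± 103 CPM in PSCs (n = 9). The S100β-GFP+ libraries held 1514 to 3648 CPM of 7 myelin genes, and also 10673 to 23209 CPM of 7 fibroblast markers and 1462 to 13609 CPM of 15 macrophage markers, all 15 of which had counts. The same 15 markers summed to 38.8 to 574 CPM in PSCs and 21.0 to 89.5 CPM in NG2-dsRed+ cells. In PSCs this sum was mostly Lyz2, at 170 ± 169 CPM, and no other marker had a mean above 3.25 CPM. By gene, 1 of the 15 markers was higher and 7 were lower in PSCs than in NG2-dsRed+ cells (median log2 fold change -1.15). Among S100β-GFP+ libraries, numbers 14, 17 and 22 are also treated apart from the other 5 and had the lowest macrophage marker sums (4295, 2877 and 1462 CPM). Among PSC libraries, number 18 had the highest macrophage sum (574 CPM) and lay at an extreme for several receptors below. The 10 markers of pericytes and smooth muscle summed to 7333 to 15923 CPM in NG2-dsRed+ cells, and 8 endothelial markers there summed to 1441 to 3447 CPM.

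P2ry12 and P2rx7 were the members that exceeded both other groups in PSCs, and the 250 bases before their start sites are shown because both genes moved together. The sequences are from RefSeq (GRCm38.p6), in which 8 of the 10 members had a promoter, and P2rx5 and P2ry6 had none. P2ry12 is read from the minus strand of chr3:59262986-59263235 and P2rx7 from the plus strand of chr5:122643677-122643926, both 5′ to 3′ towards the start site. Capitals mark matches on either strand to ACAAAG or ACAATG, the core letters bound by SOX factors, and to TGACTCA or TGAGTCA, the AP-1 site.
P2ry12: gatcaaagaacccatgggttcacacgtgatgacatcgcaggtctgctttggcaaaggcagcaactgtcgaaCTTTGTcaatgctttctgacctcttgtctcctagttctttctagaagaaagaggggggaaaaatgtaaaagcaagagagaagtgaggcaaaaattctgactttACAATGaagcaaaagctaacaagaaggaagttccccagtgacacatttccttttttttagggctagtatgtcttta
P2rx7: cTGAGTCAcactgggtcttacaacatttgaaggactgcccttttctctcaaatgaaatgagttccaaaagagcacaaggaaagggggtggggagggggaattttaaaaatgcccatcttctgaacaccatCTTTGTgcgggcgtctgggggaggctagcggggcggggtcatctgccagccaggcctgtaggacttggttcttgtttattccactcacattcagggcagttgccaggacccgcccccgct
The P2ry12 window had 2 SOX-type matches, CTTTGT at 179 and ACAATG at 76 bases before the start, and the P2rx7 window shown had 1, CTTTGT at 120 bases, besides an AP-1 match at 249 bases. P2rx7 has a second start site, whose window (chr5:122650133-122650382) is not shown and held no SOX-type or AP-1 match. Of the other members, P2ry13 had 1 SOX-type match (ACAAAG, 99 bases before the start) and P2ry14 had 1 AP-1 match (TGACTCA, at 202 bases), in the outermost window where a gene has several start sites. Such letters are common: 25.2% of 32851 promoter windows of the same length held a SOX-type match, 4.46% an AP-1 match and 2.44% the letters GAGGAAGT, of an ETS factor site, which no member held. No match overlapped another, and no binding was measured.

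The receptor genes differed between cell types in most cases, judged by edgeR's quasi-likelihood test with a threshold of 0.05 on the p-value adjusted over all genes. Of the 8 members tested, 7 passed the threshold between PSCs and S100β-GFP+ cells, 3 higher and 4 lower in PSCs, where 47.0% of all 15330 genes tested passed (22.9% higher, 24.1% lower). Between PSCs and NG2-dsRed+ cells 7 of 8 passed, 3 higher and 4 lower in PSCs, against 44.0% of all genes (20.9% higher, 23.1% lower). Between S100β-GFP+ and NG2-dsRed+ cells 7 of 8 passed, 4 higher and 3 lower in S100β-GFP+ cells, against 33.3% of all genes (18.1% higher, 15.2% lower). P2rx4, P2rx7, P2ry6, P2ry12 and P2ry14 passed in all 3 comparisons, as did 11.7% of all genes. P2rx7 and P2ry12 were higher in PSCs than in both others (13.9% of all genes), and P2ry2, P2ry6 and P2ry14 were lower than in both (14.4%). Libraries of the groups compared did not overlap for 3, 4 and 3 members in turn, as for 15.5%, 13.9% and 11.6% of all genes. The median log2 fold change over all genes was 0.04, 0.02 and -0.02, which stands beside the list medians given below. The comparisons share their libraries and are not independent of each other. These were bulk libraries, so fewer cells of a type and less RNA per cell cannot be told apart.

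**Figure D1:**
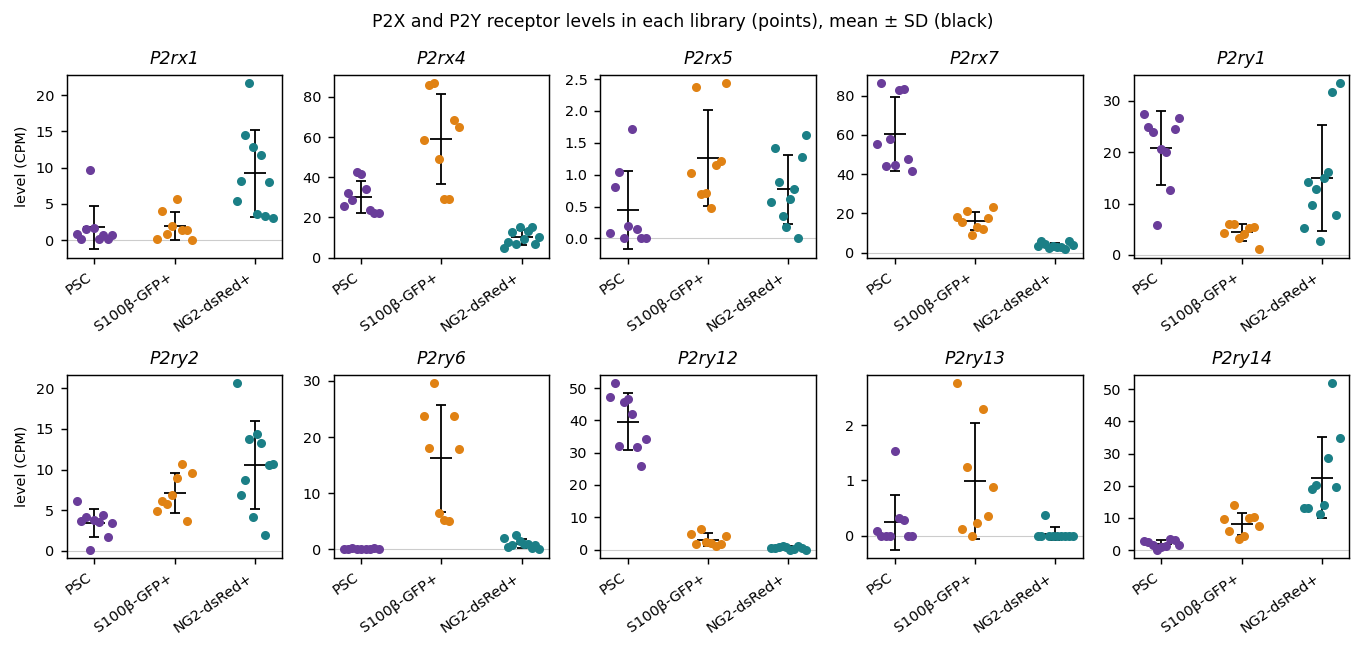
Level of each of the 10 receptor genes (CPM, linear axes that differ between panels) in every library, with 9 PSC, 8 S100β-GFP+ and 10 NG2-dsRed+ points and the mean ± SD in black. P2rx7 and P2ry12 stand highest in PSCs, P2rx4 and P2ry6 in S100β-GFP+ cells, and P2rx1 and P2ry14 in NG2-dsRed+ cells.

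Per kilobase of exon, PSCs were dominated by P2ry12 and P2rx7. The length was the union of all annotated exons of a gene, and the order of the receptors depends on it. In CPM, P2rx7 (60.4 ± 18.7) stood above P2ry12 (39.6 ± 8.88) in PSCs. P2ry12 had a mean level of 15.6 ± 3.49 CPM per kb in PSCs and made up 35.8% to 47.1% of the summed level of the 10 receptors (median 43.1%). P2rx7 followed with 10.1 ± 3.13 CPM per kb (19.2% to 40.3%), then P2ry1 with 4.84 ± 1.68 and P2rx4 with 4.31 ± 1.12. P2ry12 and P2rx7 overlapped in their mean ± SD, as did P2ry1 and P2rx4, while P2rx7 and P2ry1 did not. The other 6 members were each at or below 0.881 CPM per kb in PSCs, down to P2ry6 at 0.0296.

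The order was another one in the other cell types. In S100β-GFP+ cells P2rx4 led with 8.41 ± 3.19 CPM per kb (27.7% to 44.9% of the sum), followed by P2ry6 with 5.62 ± 3.31 and P2rx7 with 2.71 ± 0.787, neighbours whose ranges of mean ± SD overlapped. In NG2-dsRed+ cells P2rx1 (3.52 ± 2.29 CPM per kb), P2ry1 (3.47 ± 2.40), P2ry2 (2.67 ± 1.37) and P2ry14 (2.04 ± 1.15) led with overlapping spreads. The exon union was 11059 bases for P2ry14 and 2625 for P2rx1. In CPM, P2ry14 was the highest member in NG2-dsRed+ cells, at 22.6 ± 12.7 against 9.23 ± 6.00 for P2rx1. The receptor in front varied among NG2-dsRed+ libraries, where the share of P2rx1 ran from 6.66% to 43.7% and that of P2ry1 from 5.49% to 44.4%, while P2ry12 had at most 2.83%.

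**Figure D2:**
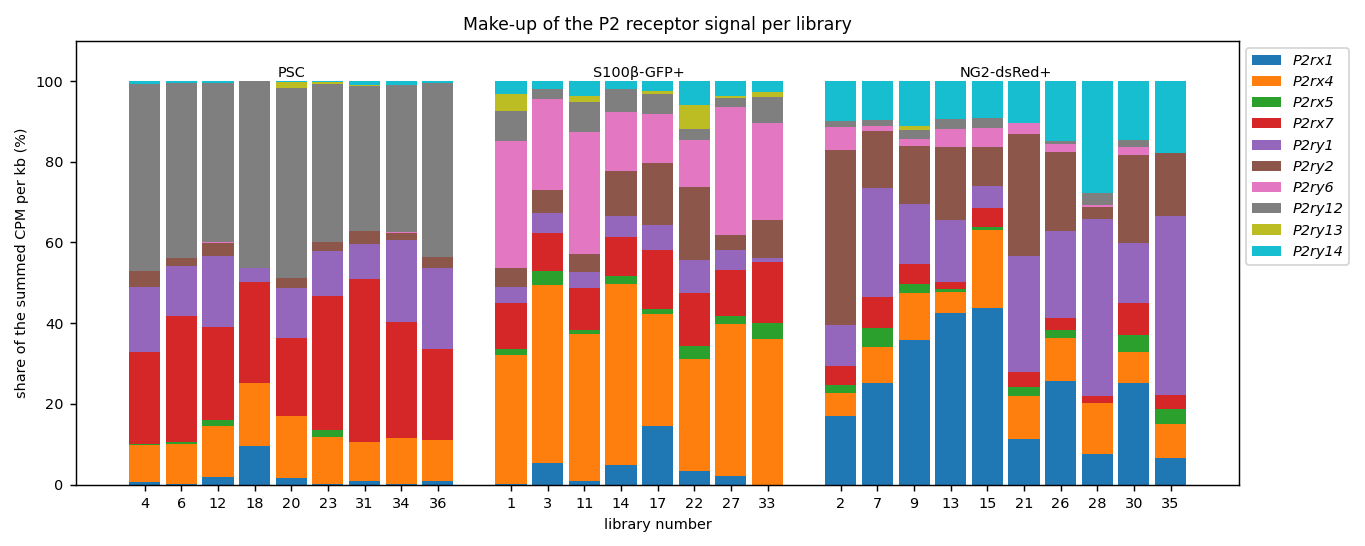
Share of each receptor gene (%, coloured segments) in the summed CPM per kb of the 10 receptors, 1 bar per library, grouped by cell type. P2ry12 (grey) takes 35.8% to 47.1% in PSC libraries and at most 7.53% in S100β-GFP+ libraries, where P2rx4 (orange) takes 27.7% to 44.9%. The shares depend on the length used, the union of a gene's annotated exons.

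Among the ATP-gated channels, P2rx7 gave the clearest separation. P2X7 (ENSMUSG00000029468, GRCm38 chr5:122643911-122691432) opens at high ATP, passes cations and, in immune cells, triggers the inflammasome. Its level was 41.7 to 86.5 CPM in PSCs (median 55.1), against 9.17 to 23.1 CPM in the S100β-GFP+ group (median 16.8) and 1.67 to 5.80 CPM in NG2-dsRed+ cells (median 3.28). No library of one cell type overlapped with another, in the order PSC, S100β-GFP+, NG2-dsRed+. The log2 fold change was 1.90 in PSCs against S100β-GFP+ cells (SE 0.23, adjusted p = 6.35e-08) and 4.07 against NG2-dsRed+ cells (SE 0.24, adjusted p = 2.73e-14), that is 3.73-fold and 16.8-fold. S100β-GFP+ cells exceeded NG2-dsRed+ cells by 2.17 on the log2 scale (SE 0.23, adjusted p = 1.08e-08). The summed Schwann cell markers moved with P2rx7. They were at 2549 to 3538 CPM in PSCs, 74.5 to 441 CPM with GFP alone and 45.1 to 92.8 CPM with dsRed alone. Of the 8 markers Ngfr did not move so, at 9.33 ± 3.81, 8.40 ± 11.5 and 10.8 ± 5.53 CPM. The sum of 7 myelin genes overlapped between PSCs (2527 to 3437 CPM) and GFP alone (1514 to 3648 CPM). The part of these markers in the result was not tested. The macrophage marker sum, of cells known to use P2X7, was lower in every PSC library than in any S100β-GFP+ library. Within the S100β-GFP+ group, libraries 14, 17 and 22, which had the lowest macrophage sums, also had the lowest P2rx7 (9.17, 13.0 and 11.8 CPM, against 15.7 to 23.1 CPM in the other 5), and the part of such cells was not tested. An exon of P2rx7 holds the whole microRNA gene Mir8115, of 119 bases, on the same strand. Mir8115 had 0 counts in all libraries, which this overlap alone could give, so its level is not known.

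P2rx4 (ENSMUSG00000029470, chr5:122707544-122729738), the neighbour of P2rx7 on chromosome 5, encodes a calcium-permeable channel that is found in neurons, glia and macrophages, partly in lysosomes. It had 22.2 to 42.8 CPM in PSCs (median 28.5), against 29.1 to 87.0 CPM in the S100β-GFP+ group (median 61.8) and 4.82 to 15.2 CPM in NG2-dsRed+ cells (median 9.73). Both GFP-carrying groups lay above every NG2-dsRed+ library, and they overlapped with each other. P2rx4 was 2.97-fold higher in PSCs than in NG2-dsRed+ cells (log2 fold change 1.57, SE 0.23, adjusted p = 1.82e-06). Against S100β-GFP+ cells it was lower in PSCs, by 1.95-fold (log2 fold change -0.97, SE 0.24, adjusted p = 0.00123). Libraries 14, 17 and 22 had 49.1, 29.1 and 29.3 CPM and the other 5 S100β-GFP+ libraries 58.6 to 87.0 CPM. With those 3 alone kept, a choice made with the values in view, the log2 fold change was -0.22 (adjusted p = 0.601). The same 3 libraries had the lowest macrophage marker sums of their group and also the highest endothelial marker sums (849, 2737 and 1431 CPM, against 129 to 200 CPM in the other 5), and the part of either in the result was not tested. S100β-GFP+ cells exceeded NG2-dsRed+ cells by 2.54 on the log2 scale (SE 0.24, adjusted p = 1.10e-09), and by 1.81 (adjusted p = 3.12e-05) with those 3 libraries alone.

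P2rx1 (ENSMUSG00000020787, chr11:72999103-73015200) encodes the fast-desensitising channel best known from smooth muscle and platelets. NG2-dsRed+ cells had 3.07 to 21.7 CPM (median 8.12), S100β-GFP+ cells 0 to 5.68 CPM (median 1.36) and PSCs 0.130 to 9.64 CPM (median 0.737). All PSC libraries but number 18 lay below every NG2-dsRed+ library, with 1.72 CPM as the next highest. P2rx1 was lower in PSCs than in NG2-dsRed+ cells (log2 fold change -2.45, SE 0.68, adjusted p = 0.00402), and without library 18 the value was -3.46 (adjusted p = 3.32e-05). It was also lower in S100β-GFP+ than in NG2-dsRed+ cells (-2.27, SE 0.71, adjusted p = 0.0133), which was lost when S100β-GFP+ libraries 14, 17 and 22 alone were kept (-1.66, adjusted p = 0.283). PSCs and S100β-GFP+ cells gave -0.18 (SE 0.71, adjusted p = 0.864), a direction that changed with the processing. The summed pericyte and smooth muscle markers moved with P2rx1, at 7333 to 15923 CPM in NG2-dsRed+ cells, 798 to 1522 in PSCs and 251 to 1675 in S100β-GFP+ cells. The sum holds Cspg4, whose promoter drove the dsRed of the sort. Cspg4 had 665 ± 138, 689 ± 132 and 71.0 ± 42.3 CPM in the same order and was the largest part in PSCs. Of the 10 markers, 1 was higher and 5 were lower in PSCs than in S100β-GFP+ cells. The part of these markers in the result was not tested.

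P2rx5, whose channel is expressed in differentiating muscle and other tissues, was scarcely detected. It had 33 counts in 6 of 9 PSC libraries, 62 counts in all 8 S100β-GFP+ libraries and 52 counts in 9 of 10 NG2-dsRed+ libraries, which is 0.443 ± 0.613, 1.26 ± 0.752 and 0.769 ± 0.536 CPM. A difference was not detectable at this depth. In a fit without the filter on low counts the adjusted p was 0.118 between PSCs and S100β-GFP+ cells, 0.495 between PSCs and NG2-dsRed+ cells and 0.505 between the others. Over all genes, that fit gave a median log2 fold change of -0.97, 0.00 and 0.78 in the same order.

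The Gq-coupled P2Y receptors each had a pattern of their own. P2Y1 (ENSMUSG00000027765, chr3:61002795-61008982), a receptor for ADP, had 5.78 to 27.5 CPM in PSCs (median 24.0), against 1.11 to 6.12 CPM in the S100β-GFP+ group (median 4.81) and 2.63 to 33.5 CPM in NG2-dsRed+ cells (median 13.6). In PSCs 8 of 9 libraries lay above all S100β-GFP+ libraries, and the exception was library 18 with 5.78 CPM. In PSCs P2ry1 exceeded the S100β-GFP+ level 4.62-fold (log2 fold change 2.21, SE 0.40, adjusted p = 3.41e-05), and S100β-GFP+ cells lay below NG2-dsRed+ cells (-1.73, SE 0.39, adjusted p = 7.71e-04). PSCs did not pass the threshold against NG2-dsRed+ cells (0.48, SE 0.35, adjusted p = 0.276) but did so by limma-voom with its quality weights (1.05, adjusted p = 0.00202). P2ry1 shares 992 exon bases with the antisense gene Gm37035, which had 56 counts in PSCs against 1736 for P2ry1. Of these, 34 were in library 18, where P2ry1 had 33 counts, and without strand the reads of both genes there cannot be told apart.

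P2Y2 (ENSMUSG00000032860, chr7:100996568-101012866) answers to ATP and UTP alike and is common in epithelia and vessels. It had 0.175 to 6.15 CPM in PSCs (median 3.63), against 3.66 to 10.7 CPM in the S100β-GFP+ group (median 6.50) and 1.98 to 20.6 CPM in NG2-dsRed+ cells (median 10.6). The ranges of all 3 cell types overlapped, with library 18 again the lowest of the PSC libraries. P2ry2 was 3-fold lower in PSCs than in NG2-dsRed+ cells (log2 fold change -1.58, SE 0.38, adjusted p = 9.87e-04). S100β-GFP+ and NG2-dsRed+ cells did not pass the threshold (-0.57, SE 0.38, adjusted p = 0.270). The lower level in PSCs than in S100β-GFP+ cells (-1.01, SE 0.39, adjusted p = 0.0344) was lost by limma-voom (-0.59, adjusted p = 0.256) and without libraries 14, 17 and 22 (-0.71, adjusted p = 0.220).

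P2ry6 (ENSMUSG00000048779, chr7:100937630-100974649), the gene of the UDP receptor that is known from macrophages and microglia, was at the edge of detection in PSCs. In all, 7 counts fell on it, in 4 of 9 PSC libraries, which gave 0 to 0.259 CPM. S100β-GFP+ cells had 5.10 to 29.6 CPM (median 17.9) and NG2-dsRed+ cells 0 to 2.49 CPM (median 0.844). Each S100β-GFP+ library lay above each library of the other cell types. The log2 fold change was -7.27 in PSCs against S100β-GFP+ cells (SE 0.66, adjusted p = 2.09e-10) and -3.30 against NG2-dsRed+ cells (SE 0.65, adjusted p = 1.30e-04). S100β-GFP+ cells exceeded NG2-dsRed+ cells by 3.97 (SE 0.50, adjusted p = 2.61e-07). Libraries 14, 17 and 22 had 6.53, 5.20 and 5.10 CPM and the other 5 S100β-GFP+ libraries 17.8 to 29.6. With those 3 alone the log2 fold change of PSCs against S100β-GFP+ cells was -5.71 (adjusted p = 4.36e-06), and that of S100β-GFP+ against NG2-dsRed+ cells was 2.44 (adjusted p = 0.0195).

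Macrophage markers moved with P2ry6 between the cell types. The S100β-GFP+ group exceeded PSCs and NG2-dsRed+ cells for all 15, with a median log2 fold change of -7.69 for PSCs relative to S100β-GFP+ cells and of 6.61 for S100β-GFP+ relative to NG2-dsRed+ cells. Csf1r, the receptor that macrophages need for survival, had 1.36 ± 0.764 CPM in PSCs, against 199 ± 110 CPM in the S100β-GFP+ group and 2.71 ± 1.26 CPM in NG2-dsRed+ cells. The part of such cells in the levels of P2ry6 and P2rx4 was not tested.

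**Figure D3:**
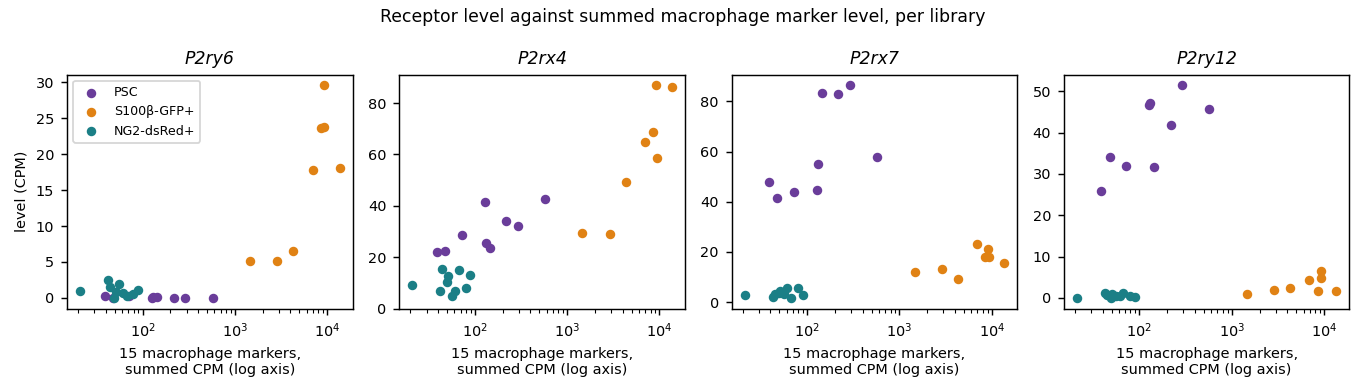
Level of P2ry6, P2rx4, P2rx7 and P2ry12 (CPM, linear axis) against the summed CPM of 15 macrophage markers (log axis), 1 point per library, coloured by cell type. The S100β-GFP+ points with the lowest marker sums (1462 to 4295 CPM) have the lowest P2ry6 of their group (5.10 to 6.53 CPM), whereas P2rx7 and P2ry12 are highest in PSCs, at marker sums of 38.8 to 574 CPM. In PSCs the mean sum is mostly the marker Lyz2 (170 ± 169 CPM).

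The Gi-coupled receptors P2ry12, P2ry13 and P2ry14 lie side by side on chromosome 3, inside Med12l on the opposite strand, and their use differed between cell types. P2Y12 (ENSMUSG00000036353, chr3:59216272-59262871) is the ADP receptor of platelets and microglia. P2ry12 had 25.9 to 51.5 CPM in PSCs (median 41.8), against 0.987 to 6.51 CPM in the S100β-GFP+ group (median 2.09) and 0 to 1.25 CPM in NG2-dsRed+ cells (median 0.519). Every PSC library lay above all others, by 13-fold over S100β-GFP+ cells in the fit (log2 fold change 3.70, SE 0.38, adjusted p = 3.31e-09) and by 67.1-fold over NG2-dsRed+ cells (6.07, SE 0.41, adjusted p = 7.07e-13). With S100β-GFP+ libraries 14, 17 and 22 alone the first was 4.55 (adjusted p = 5.04e-07). S100β-GFP+ cells exceeded NG2-dsRed+ cells by 2.37 (SE 0.41, adjusted p = 3.60e-05), with overlapping libraries. Schwann cell markers moved with P2ry12 as given for P2rx7. The sum of 5 melanocyte markers did so too, at 31.3 to 136 CPM in PSCs. It was 1.94 to 21.6 CPM with GFP alone and 0.315 to 4.40 CPM with dsRed alone. In PSCs this sum was mostly Dct (61.0 ± 46.3 CPM) and Tyrp1 (19.0 ± 10.6 CPM). Of the 5 markers 3 were tested, and 2 were higher in PSCs in each comparison. Tyr and Mlana went the other way against GFP alone, with means of 0.0116 and 0.0106 CPM in PSCs against 0.336 and 0.873 CPM. The mean of Pmel was at most 2.00 CPM in any group. The 6 platelet markers summed to 2.28 to 12.7 CPM in PSCs, 26.3 to 80.4 CPM with GFP alone and 6.84 to 25.4 CPM with dsRed alone. A set of 5 genes used to tell microglia from other macrophages summed to 23.4 to 64.8, 102 to 185 and 41.8 to 115 CPM in the same order, but 1 of them, Sall1, moved with P2ry12 (6.72 ± 3.01, 0.150 ± 0.225 and 0.458 ± 0.417 CPM). The part of all these lists in the result was not tested.

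P2Y14 (ENSMUSG00000036381, chr3:59113855-59153618), the receptor for UDP-glucose, ran the other way. P2ry14 had 0.175 to 3.58 CPM in PSCs (median 1.56), against 3.35 to 14.0 CPM in the S100β-GFP+ group (median 8.56) and 11.2 to 51.9 CPM in NG2-dsRed+ cells (median 19.3). PSC and NG2-dsRed+ libraries did not overlap, and the S100β-GFP+ libraries overlapped with both. The log2 fold change was -2.03 in PSCs against S100β-GFP+ cells (SE 0.38, adjusted p = 5.50e-05), -3.50 against NG2-dsRed+ cells (SE 0.38, adjusted p = 9.94e-09), and -1.47 in S100β-GFP+ against NG2-dsRed+ cells (SE 0.36, adjusted p = 0.00174). Pericyte and smooth muscle markers, given for P2rx1, and endothelial markers were also highest with dsRed alone (the latter 1441 to 3447 CPM, against 148 to 675 CPM in PSCs and 129 to 2737 CPM with GFP alone). Within the NG2-dsRed+ group the order was another one. Libraries 28, 35 and 26 had the highest P2ry14 (51.9, 34.8 and 28.7 CPM) and the highest fibroblast marker sums (12587, 9350 and 7329 CPM), while 28 and 35 had the lowest endothelial sums (1441 and 1848 CPM). The part of these markers in the result was not tested.

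P2ry13, an ADP receptor of blood cells and microglia, had 21 counts in PSCs, against 50 in the S100β-GFP+ group and 3 in NG2-dsRed+ cells. Of the PSC counts 16 came from library 20, and all 3 of the NG2-dsRed+ counts from library 9. Without the filter on low counts, P2ry13 passed between S100β-GFP+ and NG2-dsRed+ cells (adjusted p = 0.00619) and not between PSCs and the S100β-GFP+ (adjusted p = 0.124) or NG2-dsRed+ cells (adjusted p = 0.147). The median log2 fold change over all genes of that fit was 0.78, -0.97 and 0.00 in the same order. Of the counts on the 3 neighbours together, P2ry12 took 88.9% to 99.6% in PSC libraries (median 95.3%), 7.50% to 40.6% in S100β-GFP+ libraries (median 29.1%) and 0% to 5.88% in NG2-dsRed+ libraries (median 2.96%), with no overlap between cell types. This share is a ratio within each library, so it does not depend on the normalization. It does depend on gene length, as the exon union is 2546 bases for P2ry12 and 11059 for P2ry14. Per kb in S100β-GFP+ cells, P2ry12 had 1.19 ± 0.770 CPM, P2ry14 0.732 ± 0.319 and P2ry13 0.391 ± 0.413, with overlapping spreads.

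The host gene Med12l had 6.25 ± 2.00 CPM in PSCs, against 3.41 ± 1.48 in the S100β-GFP+ group and 1.79 ± 1.07 in NG2-dsRed+ cells, and it shares 9 exon bases with P2ry12 and none with P2ry13 or P2ry14. It passed the threshold between PSCs and NG2-dsRed+ cells (log2 fold change 1.80, adjusted p = 2.92e-04) and not between PSCs and S100β-GFP+ cells (0.88, adjusted p = 0.0699). With this locus 4 genes were tested (Med12l, Gpr171, Igsf10 and Mbnl1). In PSCs 0 were higher and 3 lower than in the S100β-GFP+ group (median -1.46; Gpr171, Igsf10 and Mbnl1 lower), and 1 was higher and 2 lower than in the NG2-dsRed+ group (median 0.51). Between the latter groups 2 were higher and 0 lower with GFP (median 0.83). Gpr171, an orphan relative of the P2Y receptors, had 6.71 ± 7.94 CPM in S100β-GFP+ cells and 0.657 ± 0.689 in PSCs.

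**Figure D4:**
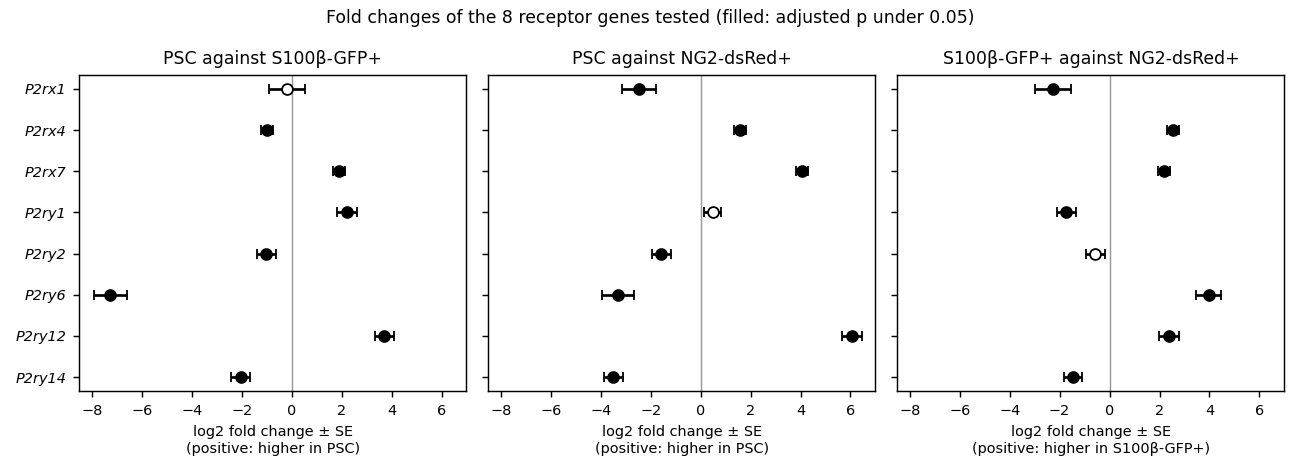
Log2 fold change ± SE of the 8 receptor genes tested, in 3 panels for the 3 comparisons, with filled points where the adjusted p was under 0.05 and open points elsewhere. P2ry6 has the most negative value in PSCs against S100β-GFP+ cells (-7.27) and P2ry12 the most positive in PSCs against NG2-dsRed+ cells (6.07), while P2rx1, P2ry1 and P2ry2 each have 1 open point.

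The members' patterns over the 27 libraries were most like those of different genes. By Pearson correlation of log2 CPM, among 15330 genes, P2rx7 was most like Megf9 (r = 0.966), Prex1 (0.961) and Kcnj10 (0.959), and P2ry12 most like Sdc4 (0.973), Syt11 (0.965) and Matn4 (0.964). P2ry6 was most like Batf (0.963), Nckap1l (0.955) and Laptm5 (0.947), and P2rx4 most like Ctsc (0.937), Csf2ra (0.930) and Hexa (0.922). P2ry14 was closest to Igf2 (0.929), Scml4 (0.911) and Foxd1 (0.906), and P2rx1 to Dgke (0.870), Pdlim3 (0.848) and Grip2 (0.845). P2ry1 (Ppp1r9a, Ube3a and Chd6, 0.827 to 0.854) and P2ry2 (Slc35d2, Mospd2 and Hecw2, 0.839 to 0.843) had looser matches. These values mostly follow the 3 cell types, whose libraries are not independent points.

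Of the remaining receptors of the family, Gpr17, which has been described as a receptor for uracil nucleotides and leukotrienes in oligodendrocyte precursors, had 21.1 ± 15.5 CPM in PSCs, against 1.01 ± 1.12 in the S100β-GFP+ group and 0.857 ± 0.749 in NG2-dsRed+ cells. PSC libraries ran from 0.175 CPM in library 18 to 48.5 CPM, and the log2 fold changes were 4.41 (SE 0.70, adjusted p = 5.13e-06) and 4.61 (SE 0.64, adjusted p = 7.41e-07). P2ry10, a lysophospholipid receptor of lymphoid and myeloid cells, had 429 counts in S100β-GFP+ cells but 4 in PSCs and 8 in NG2-dsRed+ cells. In libraries 14, 17 and 22 it had 0.882, 2.13 and 1.81 CPM and in the other S100β-GFP+ libraries 7.49 to 20.3 CPM, the same split as P2ry6. Its neighbour P2ry10b had 1.47 ± 1.64 CPM in PSCs, 12.7 ± 3.76 CPM with GFP alone and 3.57 ± 2.06 CPM with dsRed alone. P2rx2, P2rx3 and P2rx6 had 5, 4 and 11 counts in PSCs, and P2ry4 had 0, where 3 counts over the cell type are the limit that a count of 0 allows.

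The G proteins through which P2Y receptors act were all detected, 11 of 11. Against S100β-GFP+ cells 3 were higher and 4 lower in PSCs, against NG2-dsRed+ cells 1 was higher and 6 lower, with medians of 0.21 and -0.56 on the log2 scale. Between the other groups 2 were higher and 5 lower in S100β-GFP+ cells (median -0.74). Gnaq, the partner of P2Y1, P2Y2 and P2Y6, was higher in PSCs (138 ± 14.1 CPM) than in S100β-GFP+ (89.6 ± 9.78) and NG2-dsRed+ cells (92.5 ± 11.2), with log2 fold changes of 0.63 (adjusted p = 1.80e-05) and 0.58 (adjusted p = 2.39e-05). Gnai2, a partner of the P2Y12 group, was lower in PSCs (295 ± 74.4 CPM) than in S100β-GFP+ (505 ± 76.3, adjusted p = 1.67e-04) and NG2-dsRed+ cells (621 ± 108, adjusted p = 1.06e-06). Gna13 was lower in PSCs than in S100β-GFP+ cells (-1.37, adjusted p = 7.00e-08), and Gna11 lower than in NG2-dsRed+ cells (-0.77, adjusted p = 8.51e-04). Gna15, the Gq family member of blood cells, had 7.66 ± 4.39 CPM in S100β-GFP+ cells and 0.0435 ± 0.0974 CPM in PSCs, and Gna14 was highest in NG2-dsRed+ cells (16.7 ± 4.57 CPM).

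Of 15 genes for release and entry of calcium downstream of Gq, PSCs had 1 higher and 8 lower than S100β-GFP+ cells and 2 higher and 10 lower than NG2-dsRed+ cells (median -0.43 and -0.71). With GFP alone 3 were higher and 8 lower than with dsRed alone (median -0.53). Plcb4, a phospholipase C, had 32.0 ± 13.9 CPM in PSCs, against 83.5 ± 60.9 in the S100β-GFP+ group and 224 ± 51.9 in NG2-dsRed+ cells. Itpr1 and Itpr2, channels through which stored calcium leaves, were both lower in PSCs than in NG2-dsRed+ cells, at -1.71 (adjusted p = 9.24e-10) and -1.85 (adjusted p = 5.86e-09), and Stim1, the calcium sensor of the store, was lower at -0.62 (adjusted p = 8.57e-04). Plcb2, another phospholipase C, had 9.07 ± 5.94 CPM in S100β-GFP+ cells and 1.15 ± 0.963 in PSCs.

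The enzymes that break down extracellular nucleotides were mostly lower in PSCs. Of 9 ectonucleotidase genes 7 were tested, with 1 higher and 4 lower in PSCs than with GFP alone and 1 higher and 5 lower than with dsRed alone (median log2 fold change -2.22 and -2.70). Between the other two, none was higher and 3 were lower in S100β-GFP+ cells (median -0.41). Entpd1 (CD39), which turns ATP and ADP into AMP, had 14.5 ± 7.67 CPM in PSCs, against 83.5 ± 9.34 in the S100β-GFP+ group and 124 ± 18.2 in NG2-dsRed+ cells, with changes of -2.53 (SE 0.22, adjusted p = 7.35e-11) and -3.09 (SE 0.22, adjusted p = 1.34e-12). Entpd2, which turns ATP into ADP, the ligand of P2Y1 and P2Y12, was lower too, at 16.0 ± 4.97 CPM against 74.6 ± 24.7 and 66.0 ± 23.4. Fibroblast markers were likewise lower in PSCs than in either other group (494 to 1802 CPM in PSCs, 10673 to 23209 CPM with GFP alone and 1928 to 12587 CPM with dsRed alone), as did the endothelial and pericyte markers between PSCs and NG2-dsRed+ cells, and their part in the result was not tested.

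Enpp1, which cleaves ATP to AMP and pyrophosphate, was the member of that list higher in PSCs, at 127 ± 29.5 CPM against 5.77 ± 2.53 in S100β-GFP+ cells (log2 fold change 4.46, SE 0.25, adjusted p = 3.17e-14) and 33.4 ± 6.76 in NG2-dsRed+ cells (1.93, SE 0.21, adjusted p = 6.86e-09). Enpp2 (autotaxin), which acts mainly on lysophospholipids, had 10.2 ± 5.72 CPM in PSCs, against 50.6 ± 17.2 in the S100β-GFP+ group and 67.3 ± 40.1 in NG2-dsRed+ cells. Alpl, an alkaline phosphatase, was lower in PSCs than in NG2-dsRed+ cells (-3.28, SE 0.63, adjusted p = 8.80e-05).

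For release of ATP, 8 of 13 listed channel and transporter genes were tested, and PSCs had 2 higher and 3 lower than S100β-GFP+ cells and 2 higher and 4 lower than NG2-dsRed+ cells (median -0.66 and -0.68). S100β-GFP+ cells had 3 higher and 2 lower than NG2-dsRed+ cells (median 0.62). Gjc3, a connexin of myelinating and other glia, had 521 ± 104 CPM in PSCs, against 52.4 ± 27.8 in the S100β-GFP+ group and 7.39 ± 2.92 in NG2-dsRed+ cells (3.31, adjusted p = 3.26e-10, and 6.13, adjusted p = 3.37e-15). Gja1 (connexin 43) was lower in PSCs than in NG2-dsRed+ cells (-0.81, adjusted p = 0.00270), and so were Ano6 (-0.55, adjusted p = 0.00142) and Lrrc8a (-1.28, adjusted p = 3.52e-05). Gjb1 was higher in PSCs than in NG2-dsRed+ cells (2.84, adjusted p = 7.68e-04), at 2.00 ± 1.71 against 0.252 ± 0.429 CPM. Panx1, the ATP channel linked to P2X7 and named here after its values were seen, was lower in PSCs (9.69 ± 4.98 CPM) than in S100β-GFP+ cells (23.1 ± 7.42, adjusted p = 0.00401).

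The inflammasome genes downstream of P2X7 in immune cells moved against P2rx7 between PSCs and the S100β-GFP+ group. Of 7 such genes, 1 was higher and 6 lower in PSCs than in S100β-GFP+ cells (median -3.74), and 3 were higher and 1 lower than in NG2-dsRed+ cells (median -0.11). With GFP alone 6 were higher and 0 lower than with dsRed alone (median 3.21). Nlrp3, the sensor, had 0.227 ± 0.484 CPM in PSCs, against 37.2 ± 21.5 in the S100β-GFP+ group and 0.271 ± 0.255 in NG2-dsRed+ cells, and Il1b, the cytokine, had 0.933 ± 1.82, 148 ± 128 and 1.21 ± 2.00 CPM. Pycard, the adaptor, and Gsdmd, the pore, were also lower in PSCs than in S100β-GFP+ cells (-1.63, adjusted p = 7.37e-05, and -2.60, adjusted p = 7.15e-07). Nek7, a kinase of many cell types that binds the sensor, was the gene higher in PSCs, at 120 ± 26.9 CPM against 75.4 ± 13.3 (0.67, adjusted p = 3.11e-04) and 92.9 ± 13.9 (0.37, adjusted p = 0.0262). The 15 macrophage markers moved with the genes that were higher with GFP alone than in PSCs, and their part in the result was not tested.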

How the data were processed

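RNA of sorted PSCs, S100β-GFP+ cells and NG2-dsRed+ cells was isolated with a PicoPure kit and made into cDNA with a SMART-Seq v4 kit. The authors aligned the reads with HISAT2 to GRCm38 and counted them per gene with HTSeq, as the submitters' notes and the study's methods give it, and the deposited table holds whole-number counts, not normalized. No version, annotation or strand setting was given in the sources used here. A column was matched to its sample by library number, for 27 of 36 libraries, and the rest were not analysed here. Whether libraries of different cell types shared a mouse was not stated. The series' design text counts 7 S100β-GFP+ replicates where the table has 8, and does not say which was left out. Libraries of 1 cell type all differed by more than sampling noise (lowest chi-square over its degrees of freedom 8.10).

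In R 4.3.3, edgeR 4.0.16 was run with TMM normalization and filterByExpr (minimum count 10, 15330 genes kept), with 1 quasi-likelihood fit of all 27 libraries. P-values were adjusted over all genes tested by Benjamini-Hochberg, and an adjusted p under 0.05 passed. Levels per kb used the exon union of GENCODE M21, which holds 99.56% of the table's identifiers. Correlations used log2 CPM with a prior count of 2. At the depth of these libraries genes at a few CPM rest on few counts, and PCR copies count like separate molecules, so limits cover counting error only.

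The alternatives were DESeq2 1.42.0 (size factors in edgeR, and its Wald test), no filter on low counts, only the groups compared, limma-voom 3.58.1 with sample quality weights, the part of each library taken by Lars2, Gm23935 and Gm15564 as a term, fits without S100β-GFP+ libraries 14, 17 and 22, and leaving out each library in turn. A fit with those 3 libraries alone for that cell type was added after seeing the data. All members and further P2 receptor genes were named, and of each other list up to 4 genes with the highest mean level and up to 2 with the largest change past the threshold. The 3 genes most like each member were named, as were overlapping genes. The members and lists were chosen with earlier results of these data known. A few genes that this rule would name are not reported here.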

Additional observations from a re-analysis of the deposited data

Results flagged for a closer look

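Each receptor gene was checked in each cell type for a library far from the others, 30 checks in all. The gap to the nearest library was set against the whole range, and chance alone would mark about 1 in 20 groups. That rate need not hold where most libraries have 0 counts, as for P2ry13 in PSCs and NG2-dsRed+ cells. The check marked 3 libraries. P2rx1 had 9.64 CPM in PSC library 18, where the other 8 PSC libraries had 0.130 to 1.72 CPM, and the same library had the lowest PSC values of P2ry1 (5.78 CPM), P2ry2 (0.175 CPM), P2ry14 (0.175 CPM) and Gpr17 (0.175 CPM). That library also had the highest PSC sums of macrophage markers (574 CPM), of muscle fibre markers (1411 CPM) and of pericyte and smooth muscle markers (1522 CPM), while its P2ry12 (45.7 CPM) and P2rx7 (57.8 CPM) lay within the range of the other PSC libraries. On average in PSCs, Lyz2 was the largest part of the macrophage sum. Cspg4, whose promoter drove dsRed, was the largest part of the pericyte and smooth muscle sum. The part of these markers in the result was not tested. P2ry13 had 1.53 CPM in PSC library 20, from 16 counts. P2ry13 had 0.381 CPM in NG2-dsRed+ library 9, from 3 counts, and 0 in the other 9 libraries of that cell type. The gap there was the whole range, as it would be for any single library with counts.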

How the results depend on the processing

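No paired analysis was possible because the sources used here do not state which libraries, if any, shared a mouse. Over the 24 member fold changes, under alternatives other than leaving out 1 library, 180 values kept their direction and their side of the threshold, 6 lost the threshold, 1 gained it and 2 changed direction. P2rx1 between PSCs and S100β-GFP+ cells, at -0.18, turned to 0.07 with the share of the 3 genes as a term and to 0.34 without S100β-GFP+ libraries 14, 17 and 22. Leaving out S100β-GFP+ library 3 or 17 gave 0.09 or 0.25, and leaving out PSC library 18 gave -1.22. The cause was not tested, and none of these values passed the threshold. P2ry2 between PSCs and S100β-GFP+ cells lost it with the share of the 3 genes as a term (-1.05, adjusted p = 0.0619), with libraries 14, 17 and 22 alone (-1.29, adjusted p = 0.0615) and when any of 6 libraries was left out (PSC 20, 34 and 36, S100β-GFP+ 17, 22 and 33). No other member lost or gained the threshold when 1 library was left out. By limma-voom the values of P2rx1 (-3.68) and P2ry6 (-2.70) between PSCs and NG2-dsRed+ cells, and of P2rx1 between S100β-GFP+ and NG2-dsRed+ cells (-3.09), moved by over 1.5 times and passed. With libraries 14, 17 and 22 alone, P2ry12 between S100β-GFP+ and NG2-dsRed+ cells was 1.55 (adjusted p = 0.0436).

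Over all genes, 7198 passed between PSCs and S100β-GFP+ cells. Without the filter on low counts 16556 passed (3907 higher and 12649 lower in PSCs, median log2 fold change -0.97). Between S100β-GFP+ and NG2-dsRed+ cells 5099 passed, and without the filter 10586 (8194 higher and 2392 lower with GFP alone, median 0.78). Between PSCs and NG2-dsRed+ cells the numbers were 6743 and 8101 (median 0.00), with the same 44705 genes tested unfiltered. The cause of this difference was not tested. With libraries 14, 17 and 22 alone, which has fewer samples, 2484 passed between S100β-GFP+ and NG2-dsRed+ cells. Depth limits P2rx5, P2ry13 and the other genes under about 1 CPM.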
